A study of Mus musculus with 20 samples.

Results

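STING-MSC treated joints were compared with MSC treated joints, gene by gene, in the knees of mice with surgically induced osteoarthritis. This comparison took 10 of the 20 sequenced joints, 5 per group, and each joint came from a different mouse. All mice were male, 12-week-old C57BL/6Nci animals with destabilization of the medial meniscus (DMM) of the right knee, an operation that loosens a meniscus and leads to osteoarthritis. The operated knee was injected at weeks 3 and 5 with 250000 mesenchymal stromal cells (MSC), grown from adipose tissue and taken from 1 donor pool. STING-MSC had been incubated for 2 h with 10 µg/mL of the STING agonist 2′3′ cGAMP and washed, while MSC were left non-activated. The other 10 joints came from control mice that received a needle insertion alone (Ctrl) and from mice that received MSC activated through TLR3 (TLR-MSC), and they serve here for the estimate of the spread and for side by side levels. Whole joint tissue was sequenced as poly(A) RNA, with cartilage, synovium, capsule and adjacent bone in 1 extract. The methods of the study place the collection at 8 weeks after surgery and its results place it 24 h after an injection, so the interval since the last dose is not settled here.

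cGAS is an enzyme that senses DNA in the cytosol and makes the messenger cGAMP, and STING is the receptor that binds it. STING then engages the kinase TBK1, which activates the transcription factor IRF3 and NF-kB and so turns on type I interferon and inflammatory genes. In this design the agonist was met by the stromal cells before injection, and the RNA measured was that of the recipient joint, in which donor and host transcripts of the same strain are counted together. Because the tissue was bulk, fewer cells of a type and less RNA per cell cannot be told apart.

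The recovered library depth was from 33771968 to 48847432 reads per MSC treated joint and from 27955496 to 35561322 per STING-MSC joint, so the libraries of the second group were on the whole shallower. Joint 5 of the MSC group listed 296 genes at 0 (239 of them at 0 there alone), and joint 5 of the STING-MSC group listed 97 (47 there alone). The other 8 joints listed from 0 to 42. Joint 2 of the MSC group had the highest level of the collagen, fibroblast and immediate-early gene lists among the 10 joints. Counts without these 3 joints are given beside the others for many lists, and a list without such a count may also have moved. Without all 3, a choice made after seeing the data, 1318 of 14793 genes were higher and 715 lower at an unadjusted limma p up to 0.05, so list counts without them are read against those larger totals.

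Few genes differed by much. Of 14793 genes, 36 were higher in STING-MSC joints (0.243%) and 39 were lower (0.264%) by 2-fold or more with an unadjusted limma p up to 0.05, together 0.507% of all. Without the fold limit the counts were 410 higher (2.77%) and 321 lower (2.17%), or 4.94% together. That share is about what an unadjusted p of 0.05 passes when no gene differs, so passing it is weak evidence for any single gene. No gene passed a false discovery rate (FDR) of 0.05 with limma (0.0% in either direction), and the smallest FDR was 0.189. On reads recovered from the values, edgeR gave 717 genes with p up to 0.05 and none at the FDR, while DESeq2 gave 926 and then 11 higher and 17 lower genes at the FDR. The balance of directions moved with the method. Of the genes past p, 43.9% were lower with limma, 55.9% after quantile normalization and 71.7% with edgeR, and of those that also reached a fold of 2 the lower share was 52%, 62.3% and 76.1%.

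A stricter description was used to choose the genes that are shown. The 5 values of each group did not overlap for 75 higher genes (0.507%) and 81 lower genes (0.548%), 1.05% together. Of these, 52 higher genes (0.352%) and 54 lower genes (0.365%), 0.717% together, also kept an unadjusted limma p of at most 0.05 in the same direction when any 1 of the 10 joints was left out, and they are called stably separated below. After quantile normalization the counts were 39 higher and 61 lower. The stably separated lower genes had a median absolute log2 fold change of 0.47, with fold changes from -2.20 to -0.17, while the higher genes had a median of 0.26 and a range from 0.13 to 2.42. Only 8 of the 36 higher genes and 11 of the 39 lower genes at the fold limit were stably separated. Of the 36 higher genes at the fold limit, 19 were listed at 0 in joint 5 of the MSC group, and of the 39 lower ones 5 were listed at 0 in joint 5 of the STING-MSC group. When groups of 5 joints do not overlap, the exact two-sided permutation test gives p = 0.00794, the smallest it can reach, so this value recurs for every separated gene. As a proportion, 0.00794 of all genes is also about what would separate if no gene differed, and 1.05% of genes did. The exact p alone therefore does not tell a given separated gene from those. The value stands below as exact p, beside the unadjusted limma p.

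The lower side was led by immediate-early genes, which encode transcription factors that cells switch on within minutes of a stimulus and then silence again. AP-1, the dimer formed by FOS and JUN family proteins, is the best known of them and drives inflammatory and matrix-degrading genes in joint tissue. Of 21 measured genes in the immediate-early and AP-1 list, 11 fell and none rose, against 2.17% lower among all genes, and all 21 fold changes lay below 0. The list had a median log2 fold change of -0.69, where the median of all genes was 0.02. The genes that fell were Fos, Fosb, Fosl2, Junb, Jund, Egr1, Egr2, Egr3, Atf3, Nr4a2 and Dusp1. The mean level over the list, as log2(value + 1), ran from 9.72 in joint 1 to 10.74 in joint 2 of the MSC group and from 9.16 to 9.76 in STING-MSC joints, so the list overlapped between the groups through joint 1 of the MSC group. Without joint 2 of the MSC group 8 members fell, 2 fold changes lay above 0 and the median was -0.49. Without that joint and both joints numbered 5 also 8 fell, 2 lay above 0 and the median was -0.38.

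Promoter letters are shown for some lower genes and for Ciart, a higher gene described further on. The genes were chosen by hand, each with a motif, and only promoters that hold that motif are printed. Fosl2, whose promoter lacks TGACG, is not shown, nor are Mcl1, Ddit4 and Bcl3. The printed letters therefore do not show how common a motif is among lower genes. Immediate-early promoters are textbook targets of the factor CREB, which binds the cyclic AMP response element TGACGTCA and its core TGACG. The bases are the 160 before the start of the gene in RefSeq (build GRCm38.p6), 5′ to 3′ on the strand of the gene, and the capitals mark TGACG or TGACGTCA, the TATA motif TATAAA in Fos, the GAS motif TTCNNNGAA in Socs3 and the E-box CACGTG in Ciart. The windows lie at chr12:85473730-85473889 on the plus strand for Fos, chr7:19310046-19310205 on the minus strand for Fosb, chr8:84978749-84978908 on the minus strand for Junb and chr2:167688755-167688914 on the plus strand for Cebpb. For Errfi1 the window is chr4:150854910-150855069 on the plus strand, for Socs3 chr11:117969367-117969526 on the minus strand and for Ciart chr3:95882229-95882388 on the minus strand.
Fos: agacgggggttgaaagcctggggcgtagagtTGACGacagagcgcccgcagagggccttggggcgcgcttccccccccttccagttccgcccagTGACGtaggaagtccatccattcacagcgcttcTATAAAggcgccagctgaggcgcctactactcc
Fosb: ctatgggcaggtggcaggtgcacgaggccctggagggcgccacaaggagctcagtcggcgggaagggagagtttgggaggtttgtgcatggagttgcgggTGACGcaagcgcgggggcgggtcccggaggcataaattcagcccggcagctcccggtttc
Junb: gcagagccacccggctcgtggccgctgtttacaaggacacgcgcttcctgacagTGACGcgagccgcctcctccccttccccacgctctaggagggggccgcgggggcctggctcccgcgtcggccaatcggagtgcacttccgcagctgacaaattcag
Cebpb: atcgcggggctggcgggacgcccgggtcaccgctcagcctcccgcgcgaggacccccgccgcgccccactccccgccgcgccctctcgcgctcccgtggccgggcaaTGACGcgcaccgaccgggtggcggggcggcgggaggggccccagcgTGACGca
Errfi1: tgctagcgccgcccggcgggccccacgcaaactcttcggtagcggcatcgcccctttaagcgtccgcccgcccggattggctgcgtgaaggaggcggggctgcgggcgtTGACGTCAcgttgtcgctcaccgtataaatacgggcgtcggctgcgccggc
Socs3: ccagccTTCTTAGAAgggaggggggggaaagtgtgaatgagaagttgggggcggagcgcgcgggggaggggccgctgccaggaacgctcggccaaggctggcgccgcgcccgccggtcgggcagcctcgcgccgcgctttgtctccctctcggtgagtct
Ciart: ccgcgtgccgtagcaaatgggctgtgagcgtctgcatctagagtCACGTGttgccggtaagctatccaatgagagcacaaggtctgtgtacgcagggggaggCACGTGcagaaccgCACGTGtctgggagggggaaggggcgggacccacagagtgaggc
Both strands of the 250 bases before the start were searched, and a TGACGTCA also counts as a TGACG. A gene counts if any of its promoters holds the motif, and shares of the whole table are of its 27025 genes. The table is not limited to the 14793 genes measured here, and the shares among those were not taken. This core was in the promoter of 7 of the 9 fallen immediate-early genes that the table holds (Fos, Fosb, Junb, Egr2, Atf3, Nr4a2 and Dusp1) and in 19.8% of all genes of the table. It was in 16 of 44 stably separated lower genes (36.4%) and in 8 of 37 stably separated higher genes (21.6%). The GC box GGGCGG was in 77.3% of the lower and 67.6% of the higher set, against 35.4% of all genes of the table, so both sets lay above the whole table. TGACGTCA in full was in 4 of the 44 lower genes, Errfi1 among them, and in none of the 37 higher genes, against 1.77%. Of the 10 motifs searched, the AP-1 site TGANTCA was in 1 of the 44 lower and none of the 37 higher genes, against 7.82%, and the core of the interferon response element (ISRE) was in 5 and none, against 3.46%. CCAAT was in 34.1% and 37.8%, against 37.5%. Of the other marked motifs, TATAAA was in 13.6% of the lower and 5.41% of the higher set, against 14.3%. The GAS motif was in 4.55% and 2.7%, against 8.13%, and the E-box in 6.82% and 8.11%, against 6.86%. TGACG and the E-box were searched after seeing the data, and these counts describe letters without a test.

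Fos, which encodes the founding AP-1 subunit (chr12:85520664-85524048, positions of genes on GRCm39 as deposited), was measured at 665, 1704, 1609.8, 900 and 737 normalized counts in MSC treated joints 1 to 5. In STING-MSC joints 1 to 5 it was measured at 539, 346, 538, 237 and 248. Every STING-MSC joint lay below every MSC treated joint, with joint 1 of the MSC group the nearest. On log2(value + 1), the scale of all fold changes here, the log2 fold change was -1.53 ± 0.38 (SE, limma p = 0.000797, exact p = 0.00794).

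Fosb, a FOS family member (chr7:19036621-19043977), stood at 236, 2531, 795, 182 and 241 in MSC treated joints and at 126, 95.4, 133, 83.7 and 72.9 in STING-MSC joints. The groups did not overlap, but joint 2 of the MSC group was far above the others of its group and joint 3 was next. This gave a log2 fold change of -2.20 ± 0.59 (SE, limma p = 0.00134, exact p = 0.00794), which was -1.59 without joint 2 of the MSC group and -2.54 without joint 4. Fosl2, which encodes FRA2 (chr5:32293145-32315187), had normalized counts of 4032, 6065, 7515, 5786 and 4176 against 3448, 2647, 3549, 2909 and 3049.9 and a log2 fold change of -0.79 ± 0.18 (SE, limma p = 0.000398, exact p = 0.00794). Its MSC group spread evenly, with no single joint apart.

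Junb, a JUN family subunit (chr8:85701113-85705348), was at 2638, 4957, 4368, 2993 and 2789 in MSC treated joints and at 2149, 1827, 2556, 2336 and 1824 in STING-MSC joints, with joints 2 and 3 of the MSC group high and joint 3 of the STING-MSC group just under joint 1 of the MSC group. Its log2 fold change was -0.70 ± 0.22 (SE, limma p = 0.00603, exact p = 0.00794). Jun itself did not pass, with a log2 fold change of -0.12 (limma p = 0.599, exact p = 0.587). The Egr genes encode zinc finger factors of the same early wave, and Egr1, Egr2 and Egr3 fell by 1.02, 1.03 and 1.00 on the log2 scale (limma p = 0.0151, 0.0126 and 0.00826, exact p = 0.0397, 0.0238 and 0.0159), each with overlap between the groups. Nab2, a corepressor that EGR factors induce, was among the stably separated lower genes and was picked out after its values were seen, with a log2 fold change of -0.75 ± 0.25 (SE, limma p = 0.00679, exact p = 0.00794). Arc, an early gene best known from neurons (chr15:74540932-74544420), was at 74.4, 129.7, 179, 56.05 and 68.2 against 51.1, 29.4, 43.8, 28.7 and 46.1, a log2 fold change of -1.23 ± 0.45 (SE, limma p = 0.0141, exact p = 0.00794).

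**Figure D1:**
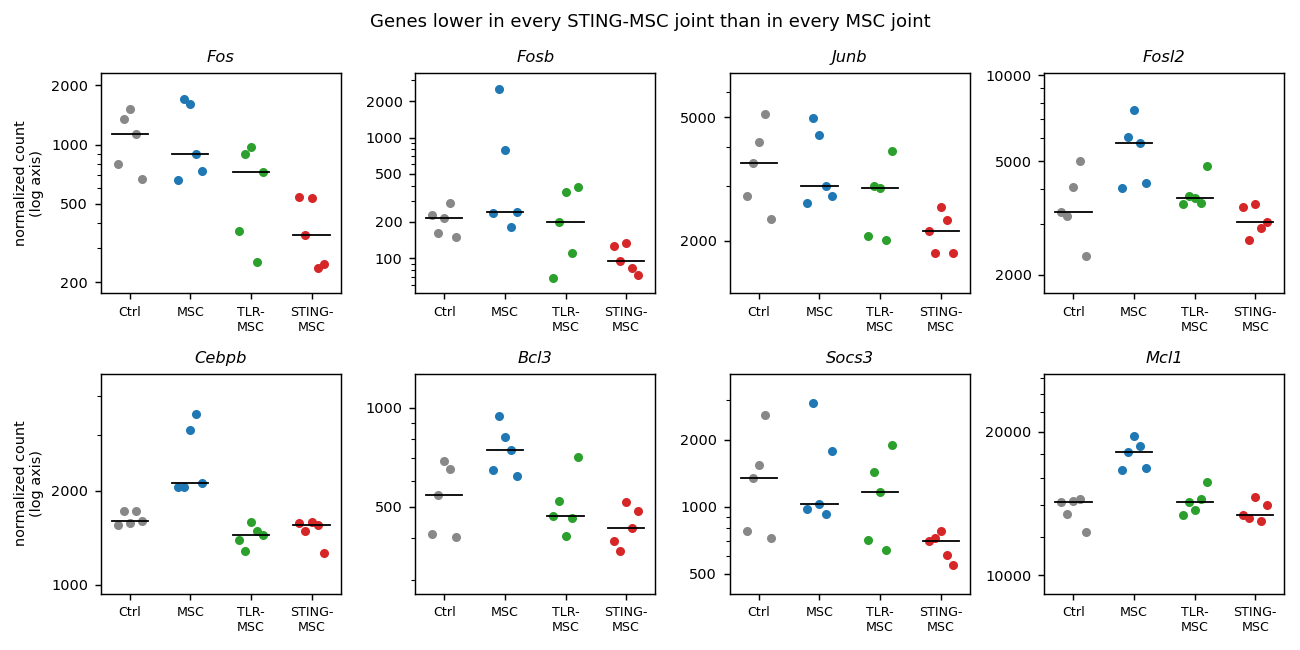
Normalized counts (log axis) of 8 genes in each joint of the 4 groups, with 1 point per joint and a black line at the median of 5. All 5 STING-MSC points lie below all 5 MSC points in every panel, as the choice of the genes required, and Fosb shows 1 MSC treated joint at 2531.

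Cebpb had the smallest limma p of all genes. It encodes C/EBP beta, a transcription factor of acute inflammation and of macrophage and fat cell differentiation (chr2:167530835-167532339). MSC treated joints measured 2054, 2052, 3133, 3507 and 2114 and STING-MSC joints 1569.5, 1489, 1591, 1557 and 1264, so that joints 3 and 4 of the MSC group were high, the other 3 close to each other, and all STING-MSC joints below them, with joint 5 the lowest and apart from the other 4. Its log2 fold change was -0.75 ± 0.13 (SE, limma p = 1.46e-05, exact p = 0.00794), with an FDR of 0.189 in limma and of 6.5e-05 in DESeq2. Leaving out single joints gave values from -0.63 to -0.82. Of the 7 measured C/EBP genes 3 fell and none rose, where 2.17% of all genes were lower, the others being Cebpd, another acute phase factor, and Cebpg, a dimer partner of the family. Without the 3 joints named above 4 C/EBP genes fell and none rose. Cebpd did not overlap between groups, with 3132, 2935, 3256, 3306 and 2948 against 2523, 1847, 2897, 2729.9 and 2706, but its log2 fold change of -0.31 ± 0.13 (SE, limma p = 0.0256, exact p = 0.00794) kept its p in 8 of 10 fits with a joint left out. Cebpg overlapped by a narrow margin and had a log2 fold change of -0.35 ± 0.09 (SE, limma p = 0.000928, exact p = 0.0238).

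Mcl1, which encodes a short-lived member of the BCL2 family that keeps myeloid and many other cells alive (chr3:95566099-95570488), showed the second smallest p. It was measured at 16584, 18119, 19638, 18671 and 16813 in MSC treated joints and at 13381, 13172, 14557, 12974 and 14029 in STING-MSC joints. The spread within each group was small, and the gap between the groups was as wide as the range of the STING-MSC joints or wider. A log2 fold change of -0.40 ± 0.07 (SE, limma p = 2.56e-05, exact p = 0.00794) resulted, and it stayed between -0.36 and -0.43 with any joint left out. It was the only one of 16 measured BCL2-family genes to pass with all joints, against 2.17% lower among all genes. In that list 2 were lower without joint 4 of the MSC group or without joint 5 of the STING-MSC group. The count was also 2 without the 3 joints named above, and 1 was higher without joint 2 of the MSC group. Bmf, a pro-death member and next by p, had a log2 fold change of -0.21 ± 0.12 (SE, limma p = 0.106, exact p = 0.175).

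NF-kB feedback genes are induced by NF-kB and many of their products damp it. Their list shares Socs3 with the IL-6 and gp130 cytokine list described next, so the fallen members of both lists include it. Against 2.17% lower among all genes, 5 of 20 measured fell and none rose (Bcl3, Socs3, Nfkbia, Nfkbid and Nfkb2), and the median log2 fold change was -0.11. Bcl3, an atypical inhibitor of the family that works in the nucleus (chr7:19542387-19556696), was at 646, 939.5, 813, 743 and 621 in MSC treated joints and at 392, 367, 516, 429.8 and 486 in STING-MSC joints, a clear gap with no joint apart and a log2 fold change of -0.77 ± 0.17 (SE, limma p = 0.000264, exact p = 0.00794). Nfkbia, which encodes the inhibitor IkB alpha, overlapped between the groups and had a log2 fold change of -0.34 ± 0.11 (SE, limma p = 0.00666, exact p = 0.0397). Tnfaip3, which encodes the deubiquitinase A20, did not pass, with a log2 fold change of -0.05 (limma p = 0.747, exact p = 0.762). The count that fell was 3 without joint 1 or 3 of the MSC group and without joint 1, 2 or 4 of the STING-MSC group, and 6 at most with a single joint left out. With the joints numbered 5 and joint 2 of the MSC group all left out, 7 members fell.

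Socs3, the feedback inhibitor of IL-6 family signalling (chr11:117856905-117860874), was measured at 974, 2938, 1026, 929 and 1779 in MSC treated joints and 700.2, 723, 778, 606 and 548 in STING-MSC joints. Joints 2 and 5 of the MSC group were high and the STING-MSC joints were uniformly low. Here the log2 fold change was -1.04 ± 0.37 (SE, limma p = 0.0107, exact p = 0.00794), and the limma p rose at most to 0.0413, without joint 2 of the MSC group. Of 15 measured IL-6 and gp130 cytokine genes 3 fell and none rose, against 2.17% lower among all genes, the others being the cytokines Osm and Clcf1. Without the 3 joints named above 1 was lower and 2 were higher. Osm, made largely by myeloid cells, overlapped between groups, at 285, 204, 542, 431 and 319 against 194, 149, 239.8, 215 and 271, with a log2 fold change of -0.68 ± 0.22 (SE, limma p = 0.00646, exact p = 0.0476). Il6 was low in every joint and did not pass, with a log2 fold change of -0.39 (limma p = 0.3, exact p = 0.254).

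Il1b encodes the inflammatory cytokine IL-1 beta. It was just outside the 12 lower genes shown for the size they keep when a joint is left out, at -0.64 where Fosl2, just inside, kept -0.67. It was measured at 932, 775, 1639, 1349 and 726 in MSC treated joints and at 515, 542, 679.9, 542 and 673 in STING-MSC joints, with no overlap and a log2 fold change of -0.81 ± 0.20 (SE, limma p = 0.000592, exact p = 0.00794). Plaur, the urokinase receptor of myeloid and stromal cells, and Ets2 and Klf10, early transcription factors, were also stably separated and lower, and were singled out after their values were seen. Their log2 fold changes were -0.54, -0.48 and -0.44 (limma p = 0.000479, 0.000438 and 0.00299, exact p = 0.00794, 0.00794 and 0.00794).

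Among growth factor feedback genes, Errfi1 (chr4:150938376-150953350) encodes an inhibitor of the EGF receptor. It was at 3784, 8213, 6199.5, 4044 and 6247 in MSC treated joints and at 3207, 3396, 3024, 2605 and 1010.2 in STING-MSC joints, with joint 5 of the STING-MSC group well below its group and the other 4 close together. Over all joints the log2 fold change was -1.16 ± 0.35 (SE, limma p = 0.00339, exact p = 0.00794), and without that joint it was -0.84. Of 18 measured EGF-family ligand and feedback genes 3 fell, Errfi1 and the signalling inhibitors Spry1 and Spry4, and none rose, against 2.17% lower among all genes. Without joint 4 of the MSC group 6 were lower and 1 higher, edgeR and DESeq2 each gave 5 lower, and without the 3 joints named above 2 were lower and 3 higher. Ccn1, a matricellular protein induced by stretch and growth factors (chr3:145352731-145355737), was at 1545, 3325, 2005, 2025 and 1559 against 1277, 1099.6, 1071, 1143 and 459, again with joint 5 of the STING-MSC group lowest, and its log2 fold change was -1.07 ± 0.36 (SE, limma p = 0.00723, exact p = 0.00794). It was the only one of 26 elastic fibre and matricellular genes to pass, while 3 were lower without joint 4 of the MSC group, with edgeR and with DESeq2, and 4 were higher and none lower without the 3 joints. In the TGF-beta pathway list 3 of 27 fell, against 2.17% of all genes (Skil, Tgif1 and Id3), and none fell without joint 2 of the MSC group or without joint 1, 4 or 5 of the STING-MSC group. Without the 3 joints 1 was lower and 5 were higher. Tgif1, a corepressor of that pathway whose groups did not overlap, kept its p in 2 of 10 fits with a joint left out, with a log2 fold change of -0.28 ± 0.13 (SE, limma p = 0.0474, exact p = 0.00794) over all joints.

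Ddit4 (chr10:59785491-59787657) encodes REDD1, an inhibitor of the growth kinase complex mTORC1 that is induced by stress, hypoxia and glucocorticoids. It stood at 810.2, 1562, 1529, 1407 and 937 in MSC treated joints and at 528, 629, 706, 581 and 449.9 in STING-MSC joints, with joints 1 and 5 the lower ones in the MSC group. Its log2 fold change was -1.07 ± 0.22 (SE, limma p = 0.00011, exact p = 0.00794), the third smallest p of all genes. Ddit4 was the only one of 16 hypoxia-induced genes to pass, against 2.17% lower among all genes, and 2 were lower without joint 5 of the MSC group. Of 21 glycolysis genes 2 rose (Pfkfb3 and Pfkfb4), against 2.77% higher among all genes. None was higher without joint 2 of the MSC group or without joint 1 or 2 of the STING-MSC group. Without joint 5 of the MSC group 2 glycolysis genes were lower, and without the 3 joints named above 1 was higher. Of 20 heat shock and chaperone genes 4 fell and none rose, against 2.17% lower among all genes, namely Dnaja1, Hspe1, Hspa1a and Hspa1b, and the last pair are near-identical copies whose reads may be shared. In the list 2 fell without joint 3 of the MSC group or without joint 5 of the STING-MSC group, and 3 without the 3 joints named above. Dnaja1, a co-chaperone of HSP70 (chr4:40722150-40737150), was at 2486, 2459, 4357, 3392 and 2508 against 2379.9, 2110, 2325, 2436 and 1951, and its smallest MSC value lay only just above the largest STING-MSC value. With joint 3 of the MSC group, the highest, the log2 fold change was -0.41 ± 0.13 (SE, limma p = 0.00647, exact p = 0.00794), and without it -0.27.

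Other lower genes had less in common. Tmem95, a membrane protein known from sperm (chr11:69766883-69768880), was at 32.8, 41.3, 38.8, 18.1 and 22.4 against 11.8, 12.2, 10.4, 12.5 and 4.80, a log2 fold change of -1.48 ± 0.50 (SE, limma p = 0.0078, exact p = 0.00794). Myl10, a myosin regulatory light chain (chr5:136722000-136729949), was at 48.3, 41.3, 43.8, 59.3 and 54.97 against 20.98, 26.9, 21.9, 19.99 and 23.98, with tight groups and a log2 fold change of -1.08 ± 0.34 (SE, limma p = 0.00456, exact p = 0.00794). Ifitm5, a bone-specific member of the interferon-induced transmembrane family (chr7:140528871-140530205), was at 26.8, 26.9, 38.8, 34.6 and 27.5 against 20.98, 14.7, 19.8, 7.50 and 9.59, and its log2 fold change was -1.12 ± 0.35 (SE, limma p = 0.0049, exact p = 0.00794). These are low counts, in which a few reads weigh more than in the genes above. Lrrc8a, a subunit of the volume-regulated anion channel that can carry cGAMP between cells (chr2:30127727-30153803), was at 301, 391, 374, 333 and 384 in MSC treated joints and 270.1, 252, 258, 265 and 247 in STING-MSC joints, with a log2 fold change of -0.46 ± 0.14 (SE, limma p = 0.00324, exact p = 0.00794).

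**Figure D2:**
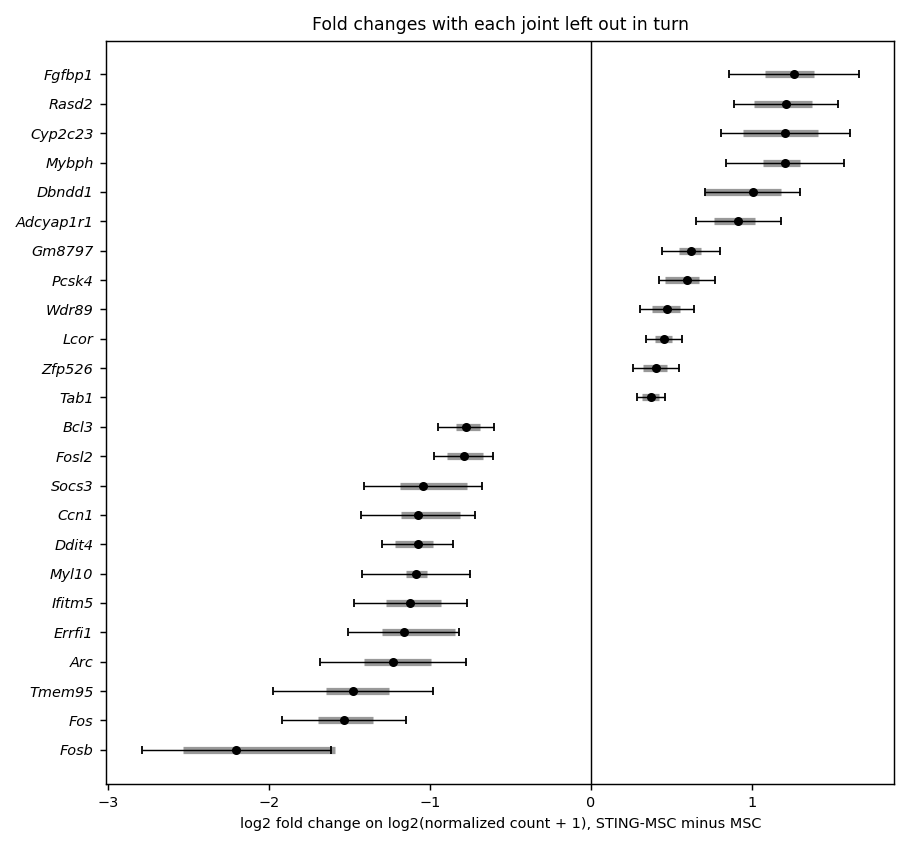
Log2 fold change (STING-MSC minus MSC, on log2(normalized count + 1)) of the 12 higher and 12 lower genes named by their smallest leave-one-out change, with black points at the fold change over all joints, whiskers of 1 SE and grey bars from the smallest to the largest value with any 1 joint left out. Grey bars stay on 1 side of 0 for all 24 genes, as the choice of the genes required, and Fosb has the longest.

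The circadian clock list was split between directions. Clock genes form a loop in which ARNTL (BMAL1) with CLOCK or NPAS2 activates E-box genes such as Dbp, Tef, Ciart and the Per genes, whose products in turn silence it. Of 18 measured genes 6 rose (Ciart, Dbp, Hlf, Tef, Per2 and Per3) and 4 fell (Arntl, Npas2, Per1 and Nfil3), against 2.77% and 2.17% of all genes. The time of day at which the joints were taken is not given in the sources used here.

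Ciart, a repressor of the loop, was measured at 41.6, 41.3, 53.7, 44.5 and 41.7 in MSC treated joints and at 128, 113, 50.1, 74.96 and 94.98 in STING-MSC joints, where joint 3 lay inside the MSC range. Ciart had a log2 fold change of 0.97 ± 0.23 (SE, limma p = 0.000505, exact p = 0.0159). Its promoter, printed above, holds CACGTG 3 times in the 160 bases. The motif was in 2 of the 5 risen clock genes that the promoter table holds (Tef and Ciart), in 1 of the 4 fallen ones (Per1) and in 6.86% of all genes of that table. Dbp, an output factor of the loop, was at 915, 1032, 769, 474 and 914 against 2056, 2494, 1069.9, 1763 and 1019.8, with joints 3 and 5 of the STING-MSC group at the level of the highest MSC treated joint and a log2 fold change of 0.99 ± 0.26 (SE, limma p = 0.00106, exact p = 0.0159). Hlf, its relative, had a log2 fold change of 0.67 ± 0.18 (SE, limma p = 0.00129, exact p = 0.0159).

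Arntl (chr7:112806672-112913334) moved the other way and was stably separated, at 782, 907, 815, 909.9 and 819 in MSC treated joints and 529.7, 619, 760.2, 632 and 529 in STING-MSC joints. Both ranges were narrow, and the log2 fold change was -0.47 ± 0.13 (SE, limma p = 0.00199, exact p = 0.00794). Npas2 (chr1:39232812-39402318) was at 109.9, 727, 113, 122 and 352 against 74.7, 83.2, 89.7, 76.2 and 58.5, with joints 2 and 5 of the MSC group far above the rest. Its log2 fold change was -1.45 ± 0.53 (SE, limma p = 0.014, exact p = 0.00794), and without joint 2 of the MSC group the limma p was 0.0549. The 6 and 4 calls of the list became 3 and 4 when only the 10 joints entered the fit, 3 and 3 without joint 4 of the MSC group, and 9 and 2 when both joints numbered 5 and joint 2 of the MSC group were all left out. Without joint 1 of the STING-MSC group the counts were 3 and 4, and without joint 2 of that group 3 and 3.

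**Figure D3:**
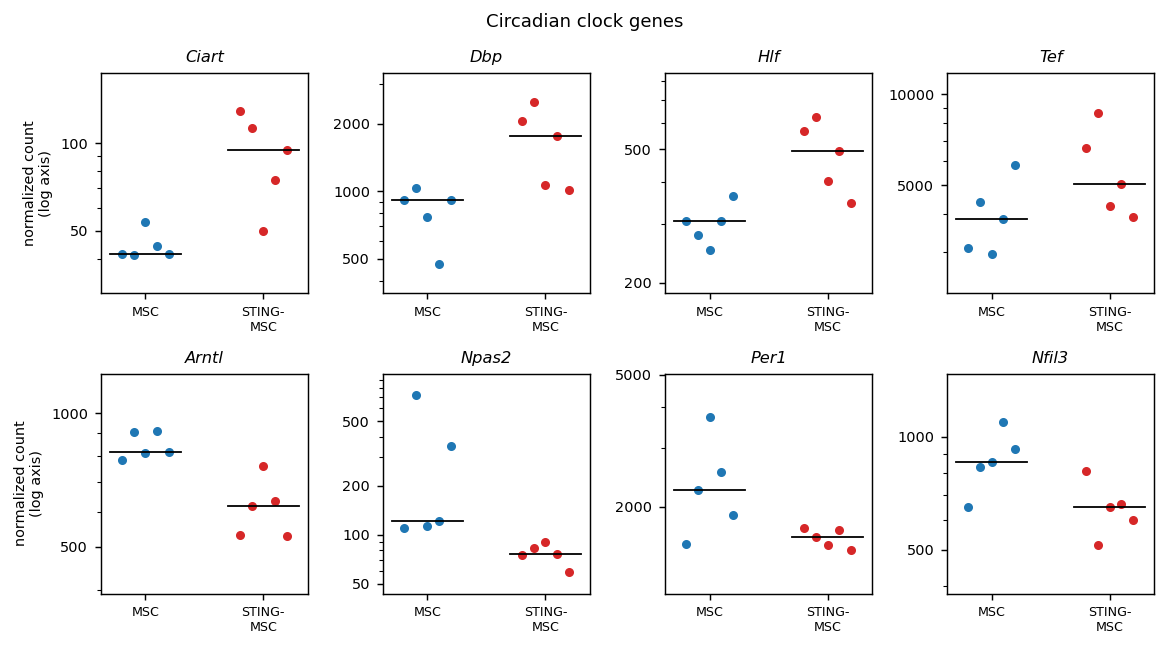
Normalized counts (log axis) of 8 circadian clock genes in the 5 MSC and the 5 STING-MSC treated joints, with 1 point per joint and a line at the median. Ciart, Dbp, Hlf and Tef lay higher in most STING-MSC joints, with overlap in each, while Arntl and Npas2 did not overlap and were lower.

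On the higher side the stably separated genes came from no one pathway among the lists, and only Mybph belonged to any of them. Fgfbp1, a secreted carrier that releases fibroblast growth factors from matrix (chr5:44136200-44139122), had normalized counts of 29.5, 31.99, 28.9, 39.6 and 22.4 in MSC treated joints and 69.5, 121, 51.1, 92.5 and 52.8 in STING-MSC joints. The STING-MSC joints spread widely, from 51.1 to 121, and the MSC treated joints did not exceed 39.6, which gave a log2 fold change of 1.26 ± 0.40 (SE, limma p = 0.00557, exact p = 0.00794).

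Mybph, a myosin binding protein of skeletal muscle (chr1:134121186-134128971), was at 320.4, 517, 301, 537 and 468 against 829, 1421, 959, 889.6 and 825, with joint 2 of the STING-MSC group highest and the other 4 close together. Its log2 fold change was 1.21 ± 0.37 (SE, limma p = 0.00403, exact p = 0.00794). With all joints it was the only one of 25 measured skeletal muscle genes to pass, against 2.77% higher among all genes. In that list 5 were higher without joint 5 of the MSC group, 4 without joint 5 of the STING-MSC group and 7 without the 3 joints named above. The summed level of that list ran from 913850 to 2916300 normalized counts in MSC treated joints and from 1461900 to 3732500 in STING-MSC joints, with a median log2 fold change of 0.37, or 0.10 without joint 1 of the MSC group, and no member at 0 in any joint. Its part in the Mybph result was not tested. Rasd2, a small GTPase related to RAS (chr8:75940572-75950742), was at 248, 670.1, 357, 473 and 529 against 889, 1589, 807, 1116 and 789, with a log2 fold change of 1.21 ± 0.32 (SE, limma p = 0.00138, exact p = 0.00794).

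Cyp2c23, a cytochrome P450 enzyme (chr19:43993461-44017648), was at 17.4, 19.4, 9.95, 35.4 and 38.7 in MSC treated joints and 52.4, 62.4, 47.97, 38.7 and 58.5 in STING-MSC joints, where the highest MSC value and the lowest STING-MSC value nearly touched. Despite the small gap the log2 fold change was 1.21 ± 0.40 (SE, limma p = 0.00714, exact p = 0.00794). Adcyap1r1, the receptor of the neuropeptide PACAP (chr6:55428963-55478437), was at 95.2, 92.6, 102, 58.5 and 49.9 against 127, 122, 145, 181 and 160.2 and had a log2 fold change of 0.92 ± 0.27 (SE, limma p = 0.0027, exact p = 0.00794). Dbndd1 (chr8:124231457-124242203), which encodes a protein with a dysbindin domain, was at 44.9, 68.2, 52.7, 42.9 and 17.3 against 73.4, 88.1, 70.9, 82.5 and 111. Joint 5 of the MSC group was far below the others there, and the log2 fold change of 1.01 ± 0.30 (SE, limma p = 0.00305, exact p = 0.00794) was 0.70 without that joint.

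Smaller but even changes followed. Tab1, an activator of the inflammatory kinase TAK1 (chr15:80017328-80045909), was at 1041, 938, 950.2, 1030.3 and 942 in MSC treated joints and 1251, 1240.3, 1111, 1293 and 1476 in STING-MSC joints. Its log2 fold change of 0.37 ± 0.09 (SE, limma p = 0.00034, exact p = 0.00794) had the smallest p among these 12 genes, with a DESeq2 FDR of 0.0201. Lcor, a corepressor of nuclear receptors (chr19:41471076-41574976), was at 552, 407, 506, 499 and 436 against 737, 587, 642, 602 and 715 and had a log2 fold change of 0.45 ± 0.11 (SE, limma p = 0.000645, exact p = 0.00794). The remaining named genes were the proprotein convertase Pcsk4, the predicted gene Gm8797, the zinc finger gene Zfp526 and the WD repeat gene Wdr89, with log2 fold changes of 0.60, 0.62, 0.41 and 0.47 (limma p = 0.00269, 0.00239, 0.00977 and 0.0112, exact p = 0.00794, 0.00794, 0.00794 and 0.00794). Cep290, a protein of cilia and centrosomes, lay just outside, keeping 0.31 when a joint was left out where Tab1, just inside, kept 0.32.

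**Figure D4:**
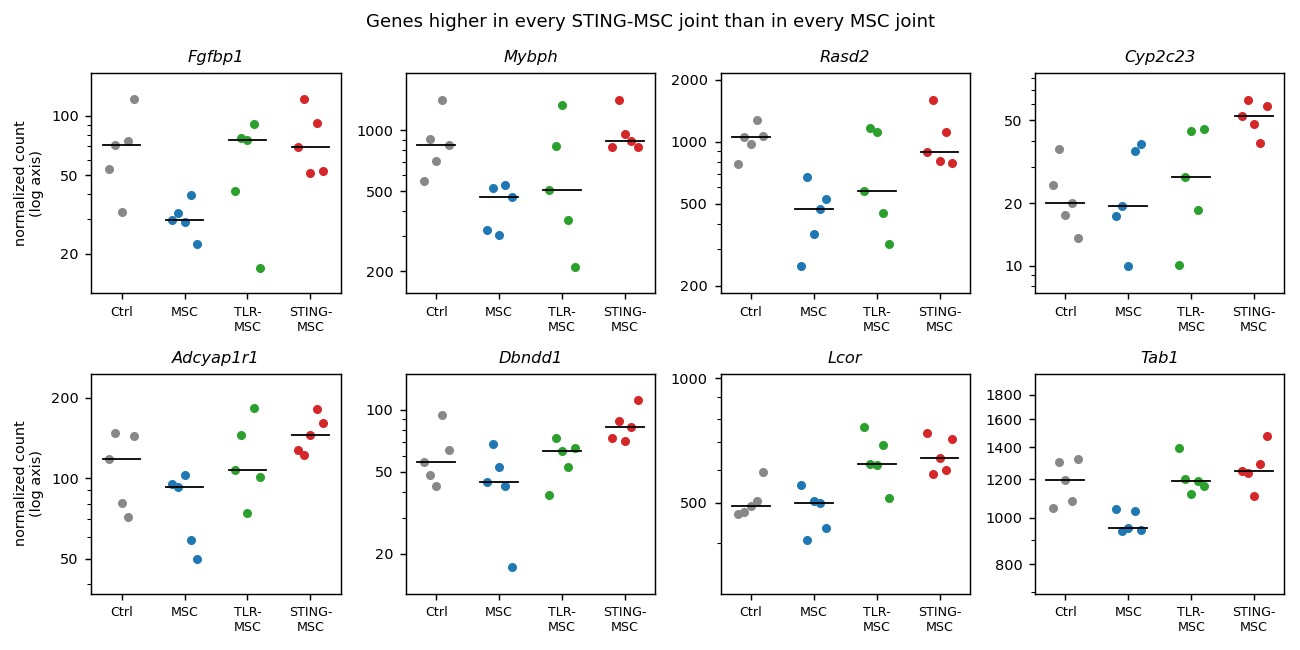
Normalized counts (log axis) of 8 higher genes in each joint of the 4 groups, with 1 point per joint and a black line at the median of 5. All STING-MSC points lie above all MSC points, as the choice of the genes required. The gap is widest for Mybph and almost none for Cyp2c23, and the Ctrl points of Fgfbp1 lie near those of STING-MSC.

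Some stably separated higher genes were singled out after their values were seen. Gria1, an AMPA glutamate receptor subunit, had the largest fold change of them, at 10.1, 3.37, 10.9, 0 and 1.02 normalized counts in MSC treated joints and 18.4, 12.2, 23.98, 21.2 and 35.5 in STING-MSC joints. These are counts of few reads, the log2 fold change of 2.42 depends on the pseudocount, and joint 4 of the MSC group was listed at 0. Among the small but tightly measured differences were those of Nbn, Mus81 and Trp53bp1, which encode a break sensor, a nuclease and 53BP1, and which belong to no list used here. For Mus81 the values were 696, 688, 686, 654 and 645 against 812, 833, 756, 832 and 776. The log2 fold changes of Nbn, Mus81 and Trp53bp1 were 0.23, 0.25 and 0.33 (limma p = 0.00769, 0.00084 and 0.00123, exact p = 0.00794, 0.00794 and 0.00794). In the list of 30 DNA replication and homologous recombination genes, all 30 fold changes lay above 0 with a median of 0.19, and none passed. All 30 mitotic spindle and checkpoint genes lay above 0 as well, with a median of 0.20 and none past the test. Mad1l1 and Ndc80 had the smallest p of that list, at log2 fold changes of 0.22 and 0.25 (limma p = 0.111 and 0.196, exact p = 0.159 and 0.23). With both joints numbered 5 and joint 2 of the MSC group left out, the medians of the replication and spindle lists were -0.21 and -0.19.

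Among genes of the pathway that the agonist engages, few differed in the joint. Of 16 measured cGAS-STING and TLR3 sensing genes only Lrrc8a passed, against 2.17% lower among all genes, and the list had a median log2 fold change of 0.01. Without the 3 joints named above none passed and the median was -0.13. Cgas was at 393, 279, 409.9, 368 and 174 in MSC treated joints and 405, 287, 391, 334 and 411 in STING-MSC joints, and Sting1 was at 1123, 913, 1080.5, 867 and 792 against 725, 749.8, 1192, 791 and 951, with wide overlap for both. The log2 fold changes were 0.22 for Cgas, -0.13 for Sting1, 0.02 for the kinase gene Tbk1, -0.03 for Irf3 and 0.05 for the interferon receptor gene Ifnar1 (limma p = 0.282, 0.348, 0.793, 0.649 and 0.616, exact p = 0.46, 0.452, 0.802, 0.675 and 0.714). The standard errors were 0.20, 0.13, 0.07, 0.07 and 0.10 in the same order, so differences of this size could not be told from 0.

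Type I interferon-stimulated genes encode antiviral effectors. Of 39 measured, 2 rose and none fell, against 2.77% higher among all genes, while 36 of the fold changes lay above 0 with a median of 0.12. The risen ones were Ifit3b and Ifit1, which encode proteins that bind viral RNA, and reads of Ifit3b may be shared with its close copy Ifit3. Ifit3b was at 126, 66.5, 90.5, 117 and 146 in MSC treated joints and 167, 213, 226, 144 and 108 in STING-MSC joints, with overlap and a log2 fold change of 0.65 ± 0.23 (SE, limma p = 0.0106, exact p = 0.0635). Ifit1 was at 296, 179, 301, 323 and 211 against 345, 286, 747, 309 and 367, with joint 3 of the STING-MSC group standing alone. Ifit1 had a log2 fold change of 0.59 ± 0.26 (SE, limma p = 0.0358, exact p = 0.0635), and without that joint the limma p was 0.143. The list had 5 higher genes without joint 1 of the MSC group, with a median of 0.23, and 1 without its joint 2 or joint 5, with medians of 0.05 and 0.06. Without joint 3 of the STING-MSC group the count was 1 and the median 0.02, and with both joints numbered 5 and joint 2 of the MSC group left out it was -0.12.

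Interferon-gamma-induced GTPases and chemokines, which report on T and NK cell activity, gave a like picture. Of 28 measured only the GTPase gene F830016B08Rik rose with limma and none fell, against 2.77% higher among all genes, while 26 lay above 0 with a median log2 fold change of 0.31. On the recovered reads 5 members were higher with edgeR and 6 with DESeq2. F830016B08Rik was at 222, 461, 515, 368 and 665 in MSC treated joints and 1593, 1219.5, 1056, 752 and 573 in STING-MSC joints, so joint 5 of each group overlapped, and the log2 fold change was 1.22 ± 0.33 (SE, limma p = 0.0014, exact p = 0.0159). It belongs to a family of close copies among which reads may be shared. The rest of the list rested on joint 3 of the STING-MSC group. Cxcl9, the chemokine that attracts activated T cells, was at 101, 254, 2853, 224 and 193 in STING-MSC joints and 376, 194, 234, 223 and 67.2 in MSC treated joints. Without joint 3 of the STING-MSC group the median was -0.01. Gbp7, second by p, had a log2 fold change of 0.37 (limma p = 0.0991, exact p = 0.167).

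No collagen gene passed. Of 29 measured, 26 lay below 0 with a median log2 fold change of -0.34, and leaving out joint 2 of the MSC group turned the median to 0.06. Col24a1 and Col15a1 had the smallest p of the list, at log2 fold changes of -0.45 and -0.67 (limma p = 0.235 and 0.276, exact p = 0.214 and 0.421). Col15a1, a basement membrane collagen, was at 936, 5876, 829.8, 520.1 and 1859 against 1113, 1078, 871, 972 and 426, with joint 2 of the MSC group far above all others. None of the 23 collagen modification and cross-linking genes passed. Of 24 matrix protease and inhibitor genes only Adamts19, a secreted metalloprotease, rose, at 18.1, 5.89, 26.9, 4.95 and 20.4 in MSC treated joints against 97.03, 41.6, 56.3, 31.2 and 22.1 in STING-MSC joints, with overlap and a log2 fold change of 1.72 ± 0.61 (SE, limma p = 0.011, exact p = 0.0159). Adamts15, a protease that cleaves proteoglycans and the next by p, had a log2 fold change of -0.75 (limma p = 0.188, exact p = 0.333). Among all genes 2.77% were higher and 2.17% lower with limma. In the protease list edgeR gave 1 higher and 3 lower genes, and DESeq2 1 higher and 5 lower. Without the 3 joints named above 3 were higher and none lower.

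Cell type lists showed the mixed makeup of a whole joint, as cartilage (Prg4, Col2a1), marrow (S100a8, Hbb-bs) and muscle (Acta1) markers were all present in every joint. None of the 18 neutrophil, 23 erythroid and heme, 18 B-lineage and plasma cell, 19 T and NK cell, 16 osteoblast and osteocyte, 20 fibroblast and stromal cell, 18 adipocyte or 19 keratin and cornified epidermis genes passed with all joints. Without joints 2 and 5 of the MSC group and joint 5 of the STING-MSC group, 10 B-lineage genes were lower with a list median of -0.55, 2 neutrophil genes and 1 T and NK cell gene were lower, and 2 fibroblast and 2 adipocyte genes were higher. With edgeR and with DESeq2, 4 fibroblast genes were lower. Leaving out single joints gave at most 2 calls in any of these lists. The erythroid and heme list lay above 0 in all 23 members, with a median log2 fold change of 0.27 that was -0.16 without both joints numbered 5 and joint 2 of the MSC group, and its summed level ran from 1035800 to 2041800 in MSC treated joints and from 1420300 to 2131200 in STING-MSC joints. The fibroblast list summed to between 90564 and 222290 in MSC treated joints and between 101220 and 120150 in STING-MSC joints, joint 2 of the MSC group being the highest there as in the immediate-early list. Neutrophil genes summed to between 628210 and 1074800 and between 630130 and 985540, with a median log2 fold change of 0.01. Their part in the immediate-early result was not tested.

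In the remaining cell type lists few genes passed, where 2.77% of all genes were higher and 2.17% lower. The macrophage and monocyte list had 2 of 20 that rose, Timd4, which encodes a receptor for dying cells, and Ccr2, the chemokine receptor of recruited monocytes, with log2 fold changes of 1.29 and 0.37 (limma p = 0.0238 and 0.0474, exact p = 0.0397 and 0.0873), and neither passed without joint 2 or 5 of the MSC group or without joint 3 of the STING-MSC group. Without joint 5 of the MSC group 1 member of the list was lower and none higher. Without the 3 joints named above 2 were lower and none higher. The mast cell receptor gene Mrgprb1 was 1 of 11 mast cell genes to rise, and the cartilage matrix gene Matn1, listed at 0 in joint 5 of the MSC group, was 1 of 21 cartilage genes, both at low counts. Neither the first without joint 4 nor the second without joint 2 or 5 of the MSC group passed, and Matn1 was also lost without joint 5 of the STING-MSC group. Without the 3 joints named above 2 cartilage genes were higher, and of the mast cell genes 1 was higher and 1 lower. Sele rose and Egfl7 fell among 18 endothelial genes, but Egfl7 did not pass without joint 2 or 5 of the MSC group, and neither passed without the 3 joints named above. Tnfsf11, which encodes the osteoclast factor RANKL, was the only one of 15 osteoclast genes to pass (3 did without joint 4 of the MSC group), at 98.5, 199, 222, 126 and 70.2 in MSC treated joints against 83.9, 59.9, 94.9, 56.2 and 45.1 in STING-MSC joints, and it fell by 0.99 on the log2 scale (limma p = 0.00556, exact p = 0.0317). The list of 21 Schwann cell and nerve genes had 1 that fell, Egr2, which is also an immediate-early gene, against 4 lower without joint 4 of the MSC group, 5 with edgeR and DESeq2, and 2 higher and none lower without the 3 joints named above.

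**Figure D5:**
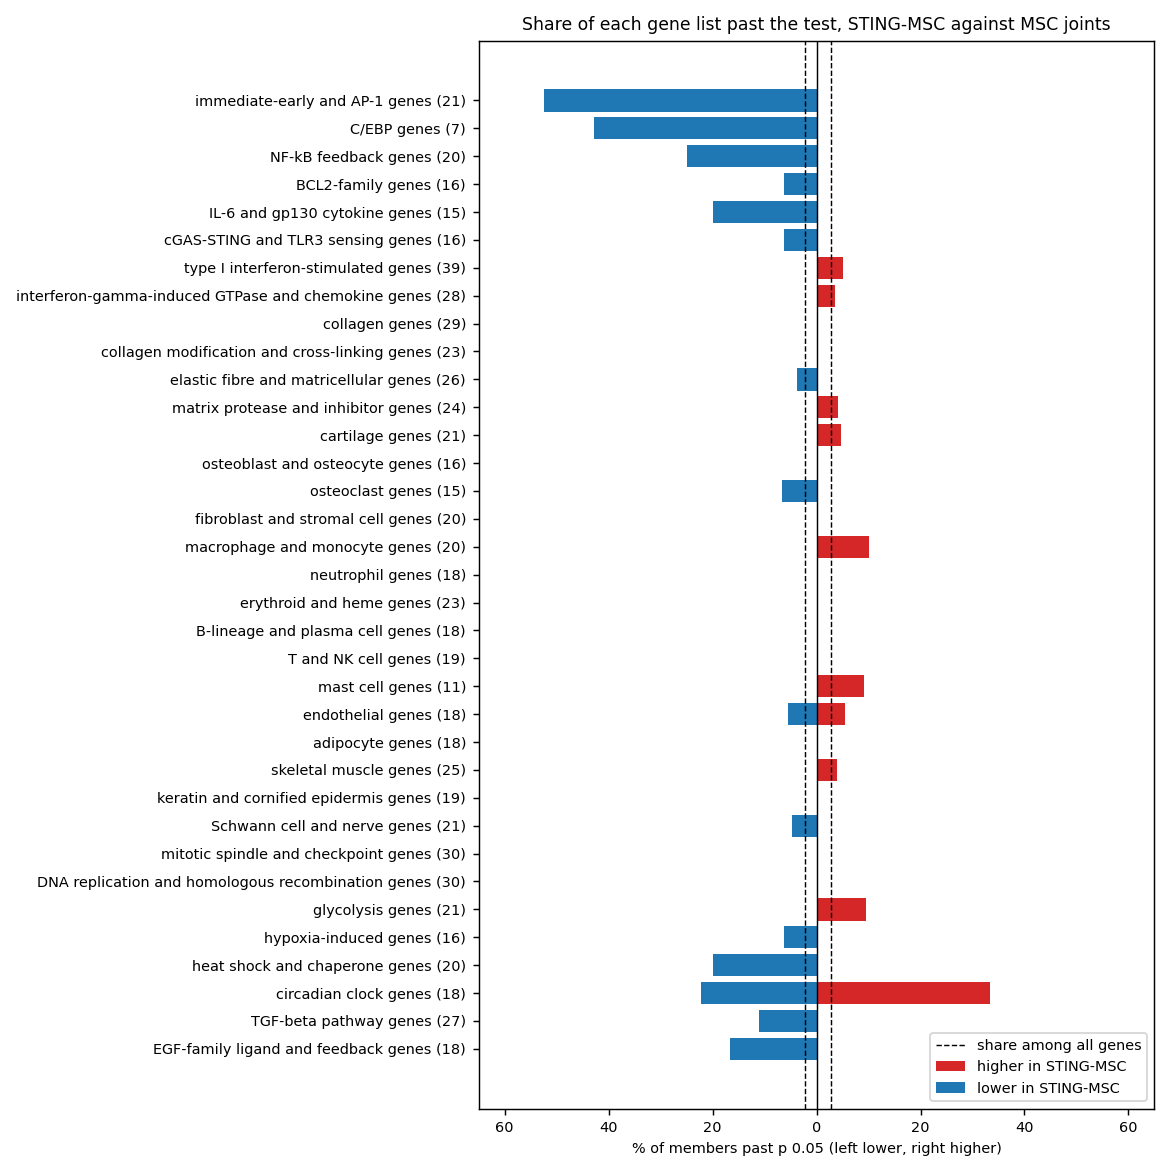
Share of the measured members of each gene list past an unadjusted limma p of 0.05 (x axis, percent of members, lower to the left and higher to the right), with the number measured in parentheses and dashed lines at the shares of all genes. The immediate-early and AP-1 list reaches farthest to the left with 11 of 21, and the circadian clock list farthest to the right with 6 of 18.

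The levels in the other groups stand beside these as a description, with no test. The genes were chosen for the gap between MSC and STING-MSC joints, so their MSC or STING-MSC values are selected, and the same joints enter each difference from Ctrl. Mean levels and SD of 5 joints follow. Cebpb averaged 1631 ± 80.3 in Ctrl, 2572 ± 696 in MSC, 1436 ± 112 in TLR-MSC and 1494 ± 134 in STING-MSC joints, and the MSC mean was the highest. Mcl1 also had its highest mean with MSC, at 13766 ± 890.5, 17965 ± 1280.2, 14295 ± 878 and 13623 ± 656. For Fosl2 the means were 3587 ± 1005, 5515 ± 1446, 3881 ± 531 and 3120.5 ± 376 in the same order of groups.

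For Fos the order was another. Its means were 1091 ± 358 in Ctrl, 1123 ± 496 in MSC, 642 ± 318 in TLR-MSC and 382 ± 149 in STING-MSC joints, so the STING-MSC mean was the lowest and the Ctrl and MSC means were close. As a log2 fold change, MSC against Ctrl was 0.62 for Cebpb, 0.38 for Mcl1, 0.00 for Fos and -0.01 for Junb. STING-MSC against Ctrl gave -0.13, -0.01, -1.54 and -0.71 for the same genes. Among higher genes, Fgfbp1, Rasd2 and Mybph had log2 fold changes of -1.09, -1.24 and -1.01 for MSC against Ctrl and of 0.17, -0.02 and 0.19 for STING-MSC against Ctrl. For Cyp2c23 they were 0.03 for MSC and 1.24 for STING-MSC.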

How the data were processed

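Joint RNA was sequenced from poly(A) libraries, and the deposited signal per gene is a read count that the authors divided by a size factor per sample. The submitters' processing notes and the methods name STAR 2.7.3a, HTSeq, DESeq2 and GRCm39. The table holds 14793 protein-coding genes, with a lowest mean of 9.39945, and whether counting used strand is not given in the sources used here. Between 98.9% and 99.9% of all values of a sample, and 100% of those under 1000, were whole multiples, within 0.05, of what 1 read was worth, so reads were recovered for the count models.

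Values were taken as log2(value + 1) and fitted with limma (3.58.1, trend) over all 20 joints in 4 groups, with the STING-MSC minus MSC contrast and Benjamini-Hochberg adjustment over all genes. All p-values given are unadjusted unless called FDR. Each is set beside an exact two-sided permutation test of the same log2 values, 5 joints against 5. The same contrast was fitted on the recovered reads with edgeR (4.0.16, quasi-likelihood) and DESeq2 (1.42.0) in R 4.3.3, and other steps used Python 3.11.15, numpy 2.4.6, pandas 2.3.3 and scipy 1.17.1. A p-value measures the spread between joints of different mice. In data simulated for this contrast on 14793 genes with 200 changed 4-fold, 100% were recovered by limma beside 14 false calls. The same data gave 100% and 12 for edgeR, 99.5% and 35 for DESeq2. These counts were drawn gene by gene, independently and with the same fixed dispersion for every gene. They check that the fits work and do not measure the power to find the smaller changes reported here.

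Genes were named by rule as the 12 stably separated genes per direction with a mean of at least 20 that kept the largest fold change when any joint was left out, the 3 genes with the smallest p, list members past p 0.05 whose groups did not overlap, the 2 members with the smallest p of selected lists, and Cgas, Sting1, Tbk1, Irf3 and Ifnar1. The comparison, the lists and the rule were chosen with earlier results of these data known. Genes picked after their values were seen are said to be so. Promoters came from a RefSeq table (GRCm38.p6) with 32851 entries, and 44 of 54 lower and 37 of 52 higher stably separated genes matched. Alternatives were pseudocounts of 0.5 and 5, a fit of the 10 joints alone, quantile normalization, a minimum mean of 20, a block on the replicate number, the count models and each joint left out. Same-numbered joints came from different mice, so the numbers do not pair them.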

Additional observations from a re-analysis of the deposited data

Results flagged for a closer look

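In 11 of 108 groups of 5 joints examined, 1 joint stood farther from its nearest neighbour than Dixon's limit for 5 values allows (0.71 of the range). Chance gives about 1 in 20 groups for independent, normally distributed values. Here the same joints recur and many of the genes were chosen for their values, so 11 of 108 cannot be set against that rate. Joint 5 of the STING-MSC group was the lowest of its group for Tmem95 (4.797 normalized counts), Errfi1 (1010), Ccn1 (458.6), Cebpb (1264) and Col15a1 (426). Joint 2 of that group was the highest for Mybph (1421). Joint 3 of that group was the highest for 2 interferon-induced genes, Ifit1 (746.6) and Gbp7 (1606). Joint 2 of the MSC group was the highest for Col24a1 (770.3). The number of genes listed at 0 was 296 in joint 5 of the MSC group and 97 in joint 5 of the STING-MSC group, each the highest of its group.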

How the results depend on the processing

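For the 52 named genes 936 values were computed under other settings, of which 907 kept their direction and their side of p 0.05, 17 lost the call, 5 gained one and 7 changed sign, and 42 genes kept both throughout. The 7 belonged to genes near 0. Tbk1 was -0.0121 with edgeR, -0.003677 after quantile normalization and from -0.02237 to 0.05555 with single joints left out, Ifnar1 ran from -0.01602 to 0.1146 and Irf3 from -0.06903 to 0.00379. The 36 genes higher by 2-fold became 18 with a pseudocount of 5, 23 with the 10 joints alone, 23 after quantile normalization and 16 at a minimum mean of 20, and from 28 to 69 with single joints left out. The 39 lower became 24 with a pseudocount of 5, 86 with edgeR and 109 with DESeq2, and from 21 to 77 with single joints left out. At p alone, 410 higher genes became 260 with the 10 joints alone and 203 with edgeR, and 321 lower became 514 with edgeR. With single joints left out they ran from 318 to 613 higher and from 256 to 524 lower, and genes whose groups did not overlap from 98 to 169 higher and from 94 to 234 lower, where fewer joints raise the count by construction. At the FDR, DESeq2 gave 11 higher and 17 lower genes and every other setting none. Of the clock genes 3 were higher with the 10 joints alone, from 3 to 7 with single joints left out, and from 3 to 4 were lower.

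Without joints 2 and 5 of the MSC group and joint 5 of the STING-MSC group together, a choice made after seeing the data, 148 genes were higher by 2-fold, 1318 were higher and 715 lower at p, 1214 and 1256 did not overlap, and 9 clock genes were higher and 2 lower. Why these counts moved was not tested. With the replicate block 34 genes were higher and 37 lower by 2-fold, and 342 and 289 at p. Of the lists, the block left 3 NF-kB feedback genes and 1 TGF-beta gene lower in place of 5 and 3. Deviations of same-numbered joints correlated at -0.187, 0.329, 0.197, -0.222 and -0.310 for numbers 1 to 5, and 1 of 10 joints was closest to its own number. Genes of under about 30 normalized counts, such as Gria1, rest on few reads, and 5 joints per group limit the precision.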
